A study of Lactuca sativa with 6 samples.

Results

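The table of *LsAP2*-responsive genes in lettuce lists 59 genes whose closest Swiss-Prot protein is described as a homeobox, Dof, GATA, B3, trihelix, bZIP or LOB domain protein or as a zinc finger protein. They were chosen by these words in the Swiss-Prot description, from 2579 genes in all. A gene described as JAGGED, another as knotted-1-like and one more as LOB domain-containing protein 6 were left out. Of the 59 genes, 53 carry descriptions of transcription factors or of zinc finger proteins of the same kind, and 6 are other proteins found by the same words. These 6 are described as the helicase MAGATAMA 3, whose name holds the letters of GATA, the chloroplast protein VAR3 and the ubiquitin ligase RHA4a. VAR3 and RHA4a are themselves described as zinc finger proteins, but of another kind. All 6 are called matched by name alone below.

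Young leaves of 1-month-old lettuce cultivar S39 were used for RNA-seq, with 3 libraries of wild type (WT) and 3 of plants that overexpress *LsAP2* (*LsAP2*-OE). *LsAP2*-OE plants carry the coding sequence of *LsAP2* under the 35S promoter of cauliflower mosaic virus, which is active in most tissues. The replicates are described as biological, and the sources used here do not name the transgenic line or lines that were sequenced. The normalized expression of *LsAP2* (Lsat_1_v5_gn_3_89681) was 25.3, 27.9 and 30.5 in WT and 214, 209 and 224 in *LsAP2*-OE, and this value does not separate the transgene from the native gene.

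Each gene has 1 normalized expression value in each library, and the kind of normalization is not named. Depth is therefore unknown, no counting error can be given, and levels are compared between libraries but not between genes. Sums over several genes are given to compare libraries, and the weight of each gene in them depends on the unnamed normalization. All listed genes had been called different by the authors on these same libraries, so the passing of a test is not independent evidence, and what can be read from it is the direction and size of each change. Values per library over all 2579 genes summed to 97790 to 112997, and WT replicate 1 had the highest sum. Markers of leaf cells were present, as 14 genes of Rubisco small chains and chlorophyll a-b binding proteins. Their summed values were 8689 to 9770 in WT and 17999.6 to 20858 in *LsAP2*-OE. The 6 higher genes were all Rubisco small chains, and the 8 lower genes were all chlorophyll a-b binding proteins. The rise of the sum therefore came from the Rubisco genes alone, and the sum does not stand for both kinds of gene. In whole leaves, fewer cells of a type and less RNA per cell cannot be told apart.

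As background, these families bind DNA through different folds. Homeobox proteins use a homeodomain, which in plants is often joined to a leucine zipper (HD-Zip), and bZIP proteins use a basic region beside a leucine zipper. Dof, GATA and C2H2 proteins hold zinc fingers that contact DNA, while the B-box zinc finger of CONSTANS-like proteins mainly binds other proteins. B3 domain, trihelix and LOB domain proteins are largely or entirely plant families. In *Arabidopsis*, members of all of them shape leaf growth, vascular tissue, light responses or the change to flowering. Names below are those of the closest protein, mostly from *Arabidopsis*, and a lettuce gene may differ in its role.

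Of the 59 genes, 34 had higher and 25 lower expression in *LsAP2*-OE, and all 59 passed an adjusted p of 0.01 in a limma fit on log2(value + 0.1) with adjustment over the 2579 genes. Among all genes of the table, 59.1% were higher, 39.6% were lower and 98.7% changed in either direction by this rule, so the share of 34 in 59 lies near the background. The values of the 3 WT libraries and the 3 *LsAP2*-OE libraries did not overlap for any of the 59 genes, with *LsAP2*-OE above WT in 34 and below it in 25. The same held for 99.4% of the table, with 59.6% above and 39.7% below. Separate ranges of the groups given below for single genes therefore describe their values and are no added support for a change. With a change of at least 2-fold on the log2(value + 0.1) scale required as well, 28 genes were higher and 25 lower, against 51.7% and 39.5% of the table. All listed genes had passed a 2-fold minimum in the authors' comparison, but 6 of the 59 (10.2%), all higher, fell short of it here. Among all genes, 7.41% were higher and fell short. For the *GT-2* gene the means were 20.3 in WT and 39.0 in *LsAP2*-OE, where adding 0.1 matters little. The reason for this difference from the authors' comparison was not tested. The median log2 fold change was 1.33 for the higher genes and −1.83 for the lower genes, against 1.39 and −1.49 for the higher and lower genes of the whole table. Of the 59 genes, 6 (10.2%) had a log2 fold change of −3 or less, against 2.79% of the table, and 4 of these 6 were B-box genes. This count rests on the pseudocount of 0.1, since with a pseudocount of 1 only *DOF2.1* remained at −3 or less (1.69%, against 0.62% of the table), and with 0.01 there were 7 genes (11.9%, against 3.99%). None of the 59 had a log2 fold change of 3 or more, against 5.54% of the table. The limit of 3 was chosen after the values were seen. The families did not all move alike. All 3 bZIP genes, which share 1 description, both trihelix genes and 7 of 8 C2H2 and other zinc finger genes were higher, while 9 of 15 B-box and CONSTANS-like genes and 4 of 5 B3 genes were lower. The 10 HD-Zip genes were evenly split, 5 and 5, and so were the 4 genes found by the Dof search words, 2 and 2. Family counts depend on the search words. The 3 cyclic Dof factors of the table, which these words do not find, were all lower, and so was the bZIP gene *FD*. With members chosen by their second description, from the NR protein set, 4 B-box genes were higher and 4 lower, and the bZIP genes were 0 higher and 1 lower.

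**Figure D1:**
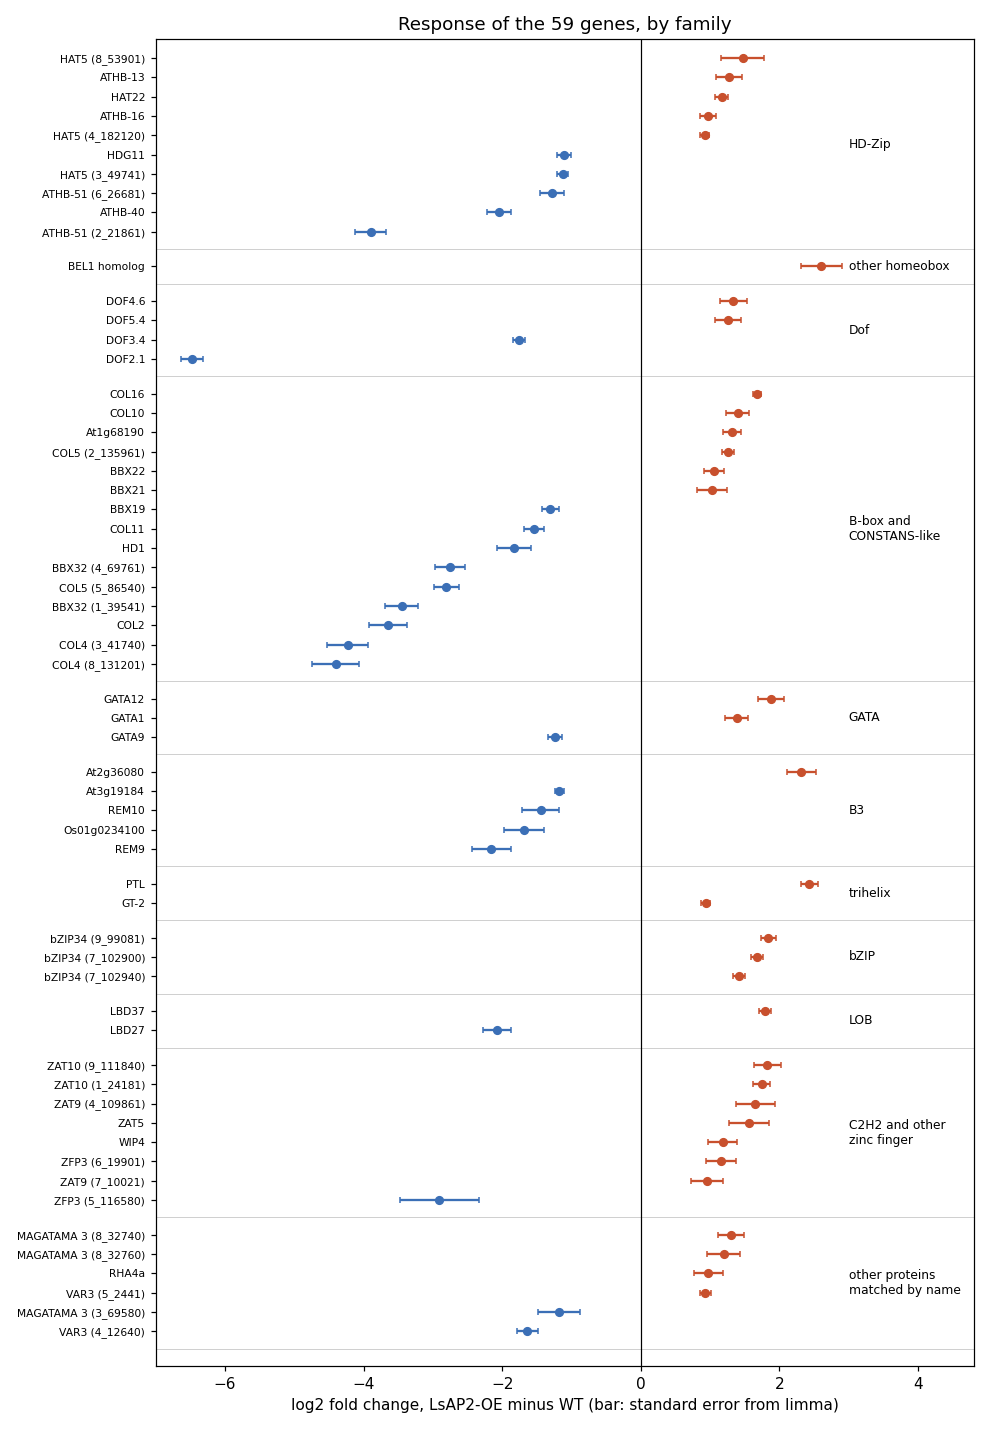
Log2 fold change of each of the 59 genes (LsAP2-OE minus WT, horizontal axis), grouped by family, with 1 point per gene and bars for the standard error from limma. Red points are higher and blue points lower in LsAP2-OE, and numbers in brackets are the last part of the gene ID where genes share a description. The lower genes reach −6.47 (*DOF2.1*), while the higher genes end at 2.61 (*BEL1 homolog*).

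Dof factors are plant proteins with a single zinc finger, several of which act in vascular tissue. The gene described as *DOF2.1* (Lsat_1_v5_gn_2_25421), which in *Arabidopsis* promotes divisions of procambial cells in developing veins, had values of 15.3, 16.7 and 17.1 in WT and 0.08204, 0.0892 and 0.0847 in *LsAP2*-OE. It was near 0 in every *LsAP2*-OE library, with a fall of the mean from 16.4 ± 0.974 to 0.0853 ± 0.00363 (SD, n = 3) (log2 fold change −6.47, SE 0.16). *DOF3.4* (Lsat_1_v5_gn_4_177381), known in *Arabidopsis* as OBP1, a regulator of cell cycle genes, had values of 30.7, 28.8 and 28.3 in WT and 8.46, 7.98 and 9.32 in *LsAP2*-OE. All *LsAP2*-OE libraries lay below the lowest WT library, and the fall was 3.41-fold (log2 fold change −1.76, SE 0.083). The 2 other genes rose. *DOF5.4* (Lsat_1_v5_gn_1_15100), known in *Arabidopsis* as OBP4, a negative regulator of cell growth, had values of 1.799, 1.498 and 1.33 in WT and 4.56, 3.38 and 3.54 in *LsAP2*-OE (log2 fold change 1.26, SE 0.19). *DOF4.6* (Lsat_1_v5_gn_7_800), expressed in the vasculature of *Arabidopsis*, had values of 0.841, 1.16 and 1.03 in WT and 2.26, 2.94 and 2.91 in *LsAP2*-OE (log2 fold change 1.34, SE 0.20). The adjusted p-values of the 4 genes from limma were 1.96e-08 to 1.92e-04.

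Markers of several cell types moved between the groups as well. Only genes that the authors had called different are listed, so markers without a change cannot appear. The counts below are therefore no census of the cell types. For comparison, the limma fit called 59.1% of the full list up and 39.6% down. All 14 xylem genes of the table, laccases and a secondary wall cellulose synthase, were higher in *LsAP2*-OE, and their summed value was 26.8 to 32.2 in WT and 68.5 to 71.5 in *LsAP2*-OE. Of 4 phloem genes, 3 were higher and 1 lower, with sums of 71.6 to 82.3 and 135 to 145. Most of this sum was the sucrose transporter gene *SUC2*, with means of 61.4 in WT and 129 in *LsAP2*-OE. The lower gene was *CLE25*, with means of 10.5 and 3.07. All 77 genes of dividing cells, mostly histones, were lower, with sums of 37485 to 50908 in WT and 14017 to 14706 in *LsAP2*-OE. None of these markers was at 0 in all libraries, which must hold for any gene called different. WT replicate 1 had the highest sum of the genes of dividing cells, and all 4 Dof genes kept their calls without it. The part of cell type shares in these changes was not tested.

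**Figure D2:**
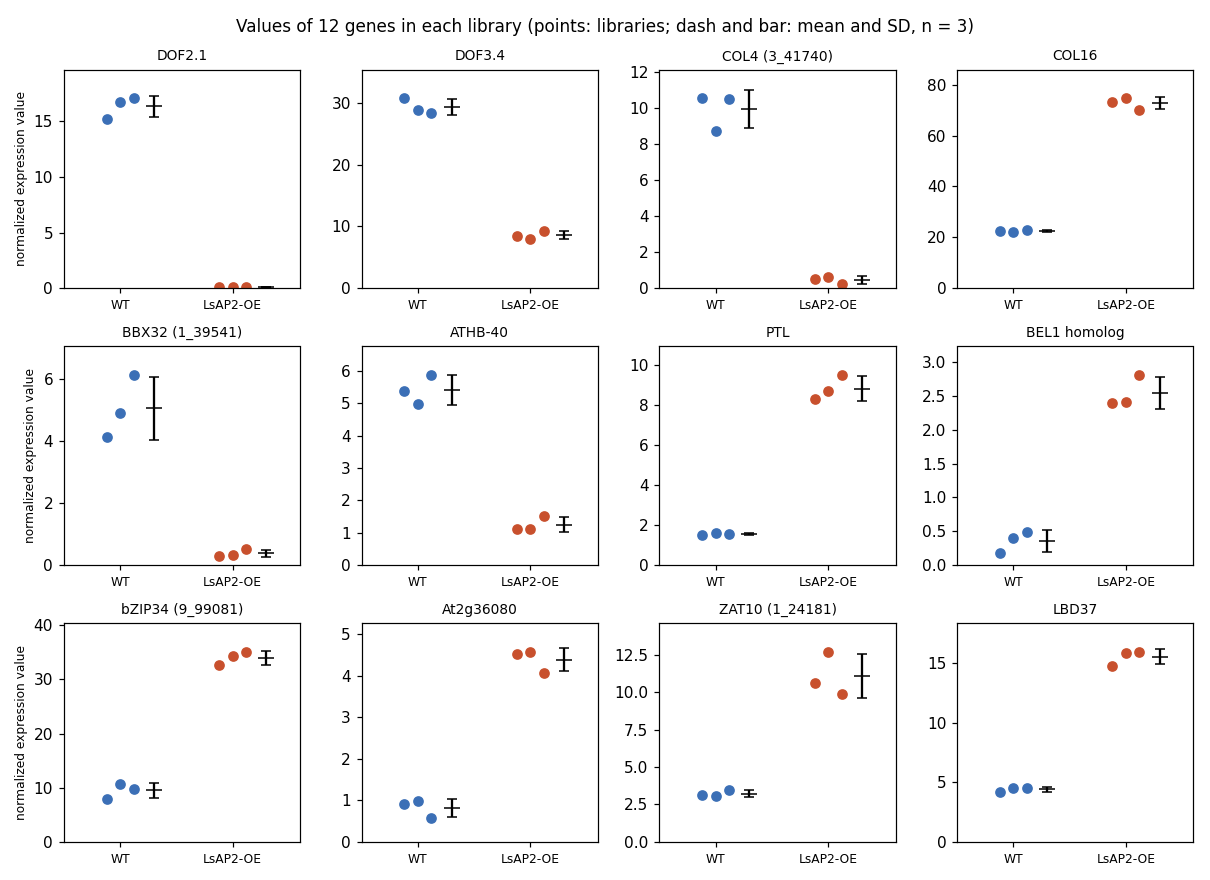
Normalized expression values of 12 of the genes in each of the 6 libraries (vertical axis, starting at 0 in each panel), with points for libraries and a dash with a bar for the mean and SD of 3 libraries. In every panel the 3 WT libraries (blue) and the 3 LsAP2-OE libraries (red) occupy separate ranges, from *DOF2.1* at 15.3 to 17.1 against 0.0820 to 0.0892 to *COL16* at 22.2 to 23.0 against 70.1 to 74.8. Separate ranges hold for 99.4% of the 2579 genes.

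B-box factors formed the largest family, with 15 genes, of which 9 fell and 6 rose. In *Arabidopsis* they relay light and day length to growth and flowering, and CONSTANS, the founding member, activates the florigen gene in long days. On the log2(value + 0.1) scale, the deepest falls of the family were those of the *CONSTANS-LIKE 4* (*COL4*) genes, named after an *Arabidopsis* repressor of flowering. One *COL4* gene (Lsat_1_v5_gn_8_131201) had values of 3.33, 3.41 and 4.01 in WT and of 0.126, 0 and 0.131 in *LsAP2*-OE, being listed at 0 in *LsAP2*-OE replicate 2. Another (Lsat_1_v5_gn_3_41740) had values of 10.5, 8.69 and 10.5 in WT and 0.517, 0.638 and 0.228 in *LsAP2*-OE (log2 fold change −4.23, SE 0.30). In its NR description this gene is an rRNA biogenesis protein, so its name is uncertain. Both were near the bottom of the scale in all 3 *LsAP2*-OE libraries. The gene described as *CONSTANS-LIKE 2* (Lsat_1_v5_gn_4_175001) had values of 1.32, 1.41 and 1.55 in WT, and was listed at 0 in *LsAP2*-OE replicates 1 and 3 with 0.0801 in replicate 2. With a pseudocount of 0.01, the *CONSTANS-LIKE 2* gene had the deepest fall of the B-box genes, at −6.11 against −5.95 and −4.51 for the *COL4* genes.

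A pair of genes were described as *BBX32*, whose *Arabidopsis* namesake holds back light-driven seedling development. The first (Lsat_1_v5_gn_1_39541) had values of 4.12, 4.89 and 6.11 in WT and 0.286, 0.335 and 0.499 in *LsAP2*-OE (log2 fold change −3.45, SE 0.24), and the second (Lsat_1_v5_gn_4_69761) of 7.08, 5.03 and 5.73 in WT and 0.625, 0.777 and 0.994 in *LsAP2*-OE (log2 fold change −2.76, SE 0.21). Both were lower in every *LsAP2*-OE library than in any WT library, by 13.5-fold and 7.44-fold in the means. The smaller falls in the family were those of *Hd1* (Lsat_1_v5_gn_7_111641), the CONSTANS protein of rice, with a log2 fold change of −1.83, of *COL11* (Lsat_1_v5_gn_0_5501) with −1.54, and of *BBX19* (Lsat_1_v5_gn_8_128741) with −1.31. BBX19 delays flowering in *Arabidopsis* by binding CONSTANS.

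The largest rise among B-box genes was that of *COL16* (Lsat_1_v5_gn_3_59241), with values of 22.7, 22.2 and 22.99 in WT and 73.4, 74.8 and 70.1 in *LsAP2*-OE. Its libraries varied little within each group, and the mean rose from 22.6 ± 0.381 to 72.8 ± 2.39 (SD, n = 3), or 3.22-fold (log2 fold change 1.68, SE 0.058). *BBX21* (Lsat_1_v5_gn_7_92040) and *BBX22* (Lsat_1_v5_gn_7_101860), which in *Arabidopsis* promote light-driven development together with HY5, rose with log2 fold changes of 1.03 and 1.05. *COL10* (Lsat_1_v5_gn_9_102721) and the B-box gene described as At1g68190 (Lsat_1_v5_gn_8_42261) rose with log2 fold changes of 1.39 and 1.31. The 2 genes described as *COL5* went in opposite directions. Their summed value was 24.4 to 26.8 in WT and 22.9 to 26.4 in *LsAP2*-OE, and it depends on the unnamed normalization. One (Lsat_1_v5_gn_5_86540) had values of 16.6, 14.5 and 17.1 in WT and 1.64, 2.52 and 2.58 in *LsAP2*-OE (log2 fold change −2.81, SE 0.18). The other (Lsat_1_v5_gn_2_135961) had values of 8.56, 9.92 and 9.69 in WT and 21.3, 22.8 and 23.8 in *LsAP2*-OE (log2 fold change 1.26, SE 0.087). Adjusted p-values of the 15 genes were 7.81e-08 to 0.00152 from limma.

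Genes of light signaling, the clock and flowering, found by words in their Swiss-Prot descriptions, were also examined, and 15 of the 20 found had lower values in *LsAP2*-OE. The words select by name and not by known partnership with B-box factors. The phytochrome kinase substrates, for example, were found by the word phytochrome. This list was chosen with results of these data known. All 7 genes described as subunits of nuclear factor Y, which are of its types A, B and C, were lower, with log2 fold changes of −1.98 to −1.19. All 3 cyclic Dof factors, Dof proteins that repress *CONSTANS*, were lower (log2 fold changes −2.91 to −1.44), and so were both *GIGANTEA* genes, whose protein relieves that repression. One *GIGANTEA* gene (Lsat_1_v5_gn_9_42181) had values of 31.1, 31.3 and 33.1 in WT and 14.9, 12.8 and 13.3 in *LsAP2*-OE, and the other (Lsat_1_v5_gn_6_101520) of 8.44, 7.99 and 7.92 in WT and 2.93, 2.86 and 2.54 in *LsAP2*-OE. The libraries of each group were close together in both. The clock gene *APRR5* (Lsat_1_v5_gn_8_4341), phytochrome E (Lsat_1_v5_gn_7_31000) and *PIF7* (Lsat_1_v5_gn_4_110001), a factor of shade growth, fell with log2 fold changes of −2.06, −1.38 and −1.77. Higher expression was found for *COP1* (Lsat_1_v5_gn_4_62980), the ubiquitin ligase that removes CONSTANS and HY5 in darkness, and 4 phytochrome kinase substrates. *COP1* had values of 3.73, 3.01 and 2.82 in WT and 6.33, 6.47 and 6.16 in *LsAP2*-OE, and the substrates had log2 fold changes of 0.91 to 2.44. Among all genes 39.6% were lower, and no test of the list was made. The sources used here do not state the time of day at harvest, and its part in these values was not tested.

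**Figure D3:**
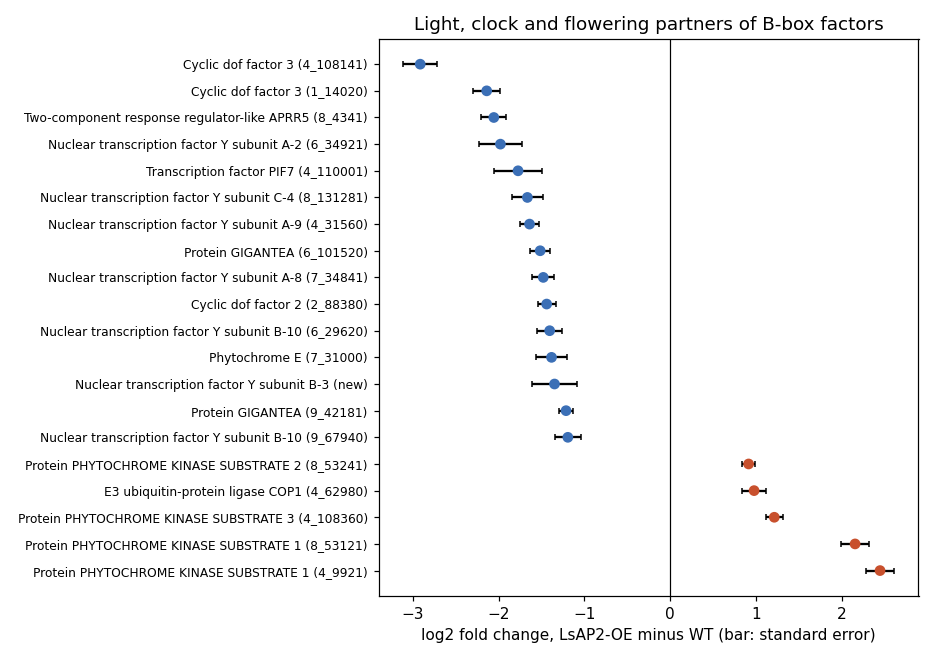
Log2 fold change (LsAP2-OE minus WT, horizontal axis) of the 20 light, clock and flowering genes of the table, with bars for the standard error from limma and numbers in brackets for the last part of the gene ID. The 7 nuclear factor Y subunits, 3 cyclic Dof factors and 2 GIGANTEA genes lie below 0, and COP1 and the 4 phytochrome kinase substrates above it.

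HD-Zip proteins occur only in plants, and those of class I, to which 8 of the 10 genes belong by their names, act mostly in growth and in responses to drought and light. Of these 8, 4 were lower and 4 higher. A pair of genes were described as *ATHB-51*, known in *Arabidopsis* as LATE MERISTEM IDENTITY1, which acts in meristem identity and in the shape of the leaf margin. One (Lsat_1_v5_gn_2_21861) had values of 1.55, 1.62 and 1.07 in WT and was listed at 0 in all 3 *LsAP2*-OE libraries. The other (Lsat_1_v5_gn_6_26681) had values of 2.77, 2.31 and 2.56 in WT and 0.873, 1.02 and 1.08 in *LsAP2*-OE (log2 fold change −1.28, SE 0.17). *ATHB-40* (Lsat_1_v5_gn_3_78821), which in *Arabidopsis* acts in axillary buds and raises abscisic acid, had values of 5.39, 4.98 and 5.88 in WT and 1.12, 1.11 and 1.505 in *LsAP2*-OE. The *LsAP2*-OE values were all below the lowest WT value, and the mean fell 4.34-fold (log2 fold change −2.04, SE 0.17).

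The 3 genes described as *HAT5*, the ATHB-1 of *Arabidopsis*, did not share a direction. The first (Lsat_1_v5_gn_3_49741) had values of 38.7, 39.4 and 42.4 in WT and 20.3, 16.97 and 17.8 in *LsAP2*-OE (log2 fold change −1.13, SE 0.084). The second (Lsat_1_v5_gn_4_182120) had values of 35.8, 33.7 and 32.03 in WT and 65.4, 62.4 and 65.01 in *LsAP2*-OE (log2 fold change 0.92, SE 0.064). The third (Lsat_1_v5_gn_8_53901) had values of 0.516, 1.37 and 0.771 in WT and 2.500, 2.64 and 2.25 in *LsAP2*-OE (log2 fold change 1.47, SE 0.31). So the first fell and the others rose, and no library of one group reached the range of the other. *ATHB-13* (Lsat_1_v5_gn_3_100281), which limits growth of cotyledons and stems in *Arabidopsis*, had values of 1.74, 2.23 and 2.71 in WT and 4.93, 5.07 and 6.404 in *LsAP2*-OE (log2 fold change 1.27, SE 0.19). *ATHB-16* (Lsat_1_v5_gn_9_73120), a suppressor of leaf growth in *Arabidopsis*, rose with a log2 fold change of 0.98. The class II gene *HAT22* (Lsat_1_v5_gn_3_84881), tied to drought and leaf yellowing in *Arabidopsis*, rose with one of 1.16. The class IV gene *HDG11* (Lsat_1_v5_gn_8_781), which acts in the epidermis and in trichome branching, fell with one of −1.11. The guard cell marker *FAMA*, the only gene of that list in the table, had values of 1.75 to 2.19 in WT and of 4.32 to 4.86 in *LsAP2*-OE, and its part in the values of *HDG11* was not tested. Adjusted p-values of the 10 HD-Zip genes were 7.08e-07 to 0.00152 from limma.

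The other homeobox gene was the *BEL1 homolog* (Lsat_1_v5_gn_3_6961), named after an *Arabidopsis* factor of ovule development that pairs with KNOTTED-type proteins. It had values of 0.175, 0.401 and 0.491 in WT and 2.41, 2.41 and 2.81 in *LsAP2*-OE. The *LsAP2*-OE libraries all lay above the highest WT library, and on the log2(value + 0.1) scale this was the largest rise of the 59 genes (log2 fold change 2.61, SE 0.30, adjusted p = 3.79e-05 from limma). With a pseudocount of 1 its log2 fold change was 1.39, below that of *PTL* at 1.94.

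Both trihelix genes rose. *PETAL LOSS* (*PTL*, Lsat_1_v5_gn_0_16941), which in *Arabidopsis* restrains growth between sepals, had values of 1.51, 1.62 and 1.54 in WT and 8.29, 8.69 and 9.51 in *LsAP2*-OE. The WT libraries agreed closely, and the mean rose from 1.56 ± 0.0562 to 8.83 ± 0.621 (SD, n = 3), or 5.67-fold (log2 fold change 2.43, SE 0.12). *GT-2* (Lsat_1_v5_gn_6_99141), GTL1-like by its NR description, had values of 20.8, 20.3 and 19.8 in WT and 39.2, 36.6 and 41.04 in *LsAP2*-OE (log2 fold change 0.93, SE 0.068). GT-2 binds light-responsive promoters, and GTL1 restrains cell growth in *Arabidopsis* trichomes. The adjusted p-values were 4.07e-07 and 2.62e-06 from limma.

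All 3 bZIP genes carried the same description, *BZIP34*, which in *Arabidopsis* acts in pollen development and lipid metabolism, and the NR column calls them basic leucine zipper 61-like. The first (Lsat_1_v5_gn_7_102900) had values of 10.9, 13.05 and 12.04 in WT and 40.3, 36.6 and 38.2 in *LsAP2*-OE (log2 fold change 1.67, SE 0.084). The second (Lsat_1_v5_gn_7_102940) had values of 8.81, 8.88 and 8.69 in WT and 21.7, 23.1 and 26.2 in *LsAP2*-OE (log2 fold change 1.41, SE 0.087). The third (Lsat_1_v5_gn_9_99081) had values of 7.93, 10.7 and 9.83 in WT and 32.6, 34.3 and 35.1 in *LsAP2*-OE (log2 fold change 1.84, SE 0.11). Every *LsAP2*-OE library was above every WT library in all of them, by 2.69-fold to 3.58-fold in the means, with adjusted p-values of 4.02e-07 to 1.08e-06 from limma. The groups were likewise apart for 99.4% of the table. Reads of similar copies may have been divided between them, which makes the level of any single copy uncertain.

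Of the 8 C2H2 and other zinc finger genes, 7 rose and 1 fell. The 5 *ZAT* genes, a family of stress-responsive repressors with an EAR motif, all rose, with log2 fold changes of 0.95 to 1.82. One *ZAT10* gene (Lsat_1_v5_gn_1_24181), named after a factor induced by salt, cold and drought, had values of 3.14, 3.07 and 3.47 in WT and 10.6, 12.7 and 9.89 in *LsAP2*-OE (log2 fold change 1.74, SE 0.12). Another *ZAT10* gene (Lsat_1_v5_gn_9_111840) had values of 0.903, 1.26 and 1.35 in WT and 3.73, 4.72 and 4.65 in *LsAP2*-OE (log2 fold change 1.82, SE 0.20). Both rose by more than 3-fold in the means. *ZAT5* (Lsat_1_v5_gn_6_28380) had values of 0.327, 0.494 and 0.6503 in WT and 1.14, 1.93 and 1.85 in *LsAP2*-OE (log2 fold change 1.56, SE 0.29). One *ZAT9* gene (Lsat_1_v5_gn_4_109861) had values of 0.133, 0.335 and 0.132 in WT and 0.766, 0.798 and 0.839 in *LsAP2*-OE (log2 fold change 1.65, SE 0.28), and another (Lsat_1_v5_gn_7_10021) of 0.702, 0.486 and 0.576 in WT and 0.957, 1.48 and 1.28 in *LsAP2*-OE (log2 fold change 0.95, SE 0.23). The latter was near the threshold, with an adjusted p of 0.00344 from limma and of 0.00208 to 0.0150 over the alternatives, and it did not pass when replicate 2 or 3 of either group was left out.

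*WIP4* (Lsat_1_v5_gn_1_107620), which acts in root meristem formation in *Arabidopsis*, rose with a log2 fold change of 1.18. The 2 genes described as *ZFP3*, which dampens abscisic acid responses of *Arabidopsis* seeds, moved in opposite directions. One (Lsat_1_v5_gn_5_116580) fell, with values of 2.64, 3.02 and 2.73 in WT and 0.0356, 0.4204 and 0.715 in *LsAP2*-OE (log2 fold change −2.91, SE 0.58). Its *LsAP2*-OE libraries were spread widely, and the value of 0.0356 in replicate 1 was the lowest. The other (Lsat_1_v5_gn_6_19901) rose, with values of 0.864, 0.711 and 1.11 in WT and 1.91, 2.44 and 1.96 in *LsAP2*-OE (log2 fold change 1.16, SE 0.21). The adjusted p-values of the 8 C2H2 and other zinc finger genes were 2.40e-06 to 0.00344 from limma.

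B3 domain genes fell in 4 of 5 cases. A *REM9* gene (Lactuca_sativa_newGene_398), of a family named for reproductive meristems, had values of 1.67, 1.89 and 2.23 in WT and 0.249, 0.293 and 0.568 in *LsAP2*-OE (log2 fold change −2.16, SE 0.28). A *REM10* gene (Lsat_1_v5_gn_3_109740) had values of 2.496, 3.26 and 3.02 in WT and 1.19, 0.642 and 1.303 in *LsAP2*-OE (log2 fold change −1.45, SE 0.27), and the NR column describes it as an auxin response factor, another class of B3 protein. A gene named after the rice protein Os01g0234100 (Lsat_1_v5_gn_7_87101) had values of 1.75, 2.44 and 1.74 in WT and 0.399, 0.869 and 0.4401 in *LsAP2*-OE (log2 fold change −1.68, SE 0.29). In each of these 3 genes the ranges of the groups did not meet, as for 99.4% of the table. The gene described as At3g19184 (Lactuca_sativa_newGene_2421) fell with a log2 fold change of −1.18. The 1 gene that rose is described as At2g36080 (Lsat_1_v5_gn_2_56260), a relative of the NGATHA factors of leaf and flower shape. Its values were 0.912, 0.973 and 0.5702 in WT and 4.51, 4.58 and 4.08 in *LsAP2*-OE, a 5.36-fold rise of the mean (log2 fold change 2.32, SE 0.21). The adjusted p-values were 6.44e-07 to 7.25e-04 from limma.

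GATA factors act in *Arabidopsis* in greening, light and nitrogen responses. *GATA9* (Lsat_1_v5_gn_2_57840) fell, with values of 42.2, 43.2 and 35.2 in WT and 15.7, 17.3 and 17.96 in *LsAP2*-OE (log2 fold change −1.24, SE 0.097). *GATA1* (Lsat_1_v5_gn_6_62960) rose, with values of 4.08, 2.998 and 3.91 in WT and 7.94, 10.9 and 10.3 in *LsAP2*-OE (log2 fold change 1.38, SE 0.17). *GATA12* (Lactuca_sativa_newGene_1161) rose as well, with values of 3.23, 3.99 and 4.55 in WT and 11.3, 17.6 and 15.6 in *LsAP2*-OE (log2 fold change 1.88, SE 0.19), and the NR column calls it GATA9-like. *LsAP2*-OE replicate 1 was the lowest of its group for both genes that rose. The adjusted p-values of the 3 genes were 3.96e-06 to 5.33e-05 from limma.

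Of the 2 LOB domain genes, *LBD37* (Lsat_1_v5_gn_2_83120) rose, with values of 4.16, 4.55 and 4.56 in WT and 14.8, 15.8 and 15.98 in *LsAP2*-OE. LBD37 represses nitrate-responsive and anthocyanin genes in *Arabidopsis*. The mean rose from 4.42 ± 0.228 to 15.5 ± 0.633 (SD, n = 3), or 3.52-fold (log2 fold change 1.79, SE 0.089). *LBD27* (Lsat_1_v5_gn_5_18480), known in *Arabidopsis* as SIDECAR POLLEN for its role in pollen divisions, fell, with values of 4.16, 3.19 and 3.83 in WT and 0.635, 0.808 and 1.001 in *LsAP2*-OE (log2 fold change −2.08, SE 0.21). The adjusted p-values were 3.84e-07 and 1.76e-05 from limma.

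The 6 proteins matched by name alone were 4 higher and 2 lower. VAR3 is a chloroplast protein needed for chloroplast and palisade development in *Arabidopsis*. One *VAR3* gene (Lsat_1_v5_gn_5_2441) had values of 22.5, 27.2 and 26.6 in WT and 47.5, 49.5 and 48.4 in *LsAP2*-OE (log2 fold change 0.93, SE 0.083), and the other (Lsat_1_v5_gn_4_12640) of 5.21, 4.57 and 4.87 in WT and 1.54, 1.69 and 1.297 in *LsAP2*-OE (log2 fold change −1.64, SE 0.15). They moved apart, the first up and the second down. Of the 3 helicase genes described as *MAGATAMA 3*, named after an *Arabidopsis* factor of female gametophyte development, Lsat_1_v5_gn_8_32760 had values of 1.08, 1.51 and 1.71 in WT and 3.98, 2.53 and 3.75 in *LsAP2*-OE (log2 fold change 1.19, SE 0.24). The helicase gene Lsat_1_v5_gn_8_32740 had values of 0.561, 0.686 and 0.583 in WT and 1.501, 1.75 and 1.69 in *LsAP2*-OE (log2 fold change 1.30, SE 0.18). The last, Lsat_1_v5_gn_3_69580, had values of 0.392, 0.803 and 0.476 in WT and 0.209, 0.107 and 0.247 in *LsAP2*-OE (log2 fold change −1.18, SE 0.30). Its fall had an adjusted p of 0.004905 from limma and of 0.00447 to 0.0189 over the alternatives, and it was not called when replicate 2 or 3 of WT, or replicate 1 or 2 of *LsAP2*-OE, was left out. With a pseudocount of 1 its log2 fold change was −0.38. *RHA4a* (Lsat_1_v5_gn_6_9501), a RING-type ubiquitin ligase, had values of 1.07, 1.79 and 1.44 in WT and 2.95, 3.12 and 2.54 in *LsAP2*-OE (log2 fold change 0.98, SE 0.21).

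Genes with the same description could be compared directly, since 25 of the 59 genes fell into 11 descriptions held by more than 1 gene. For each of the 17 pairs, the log2 ratio of both genes was taken in each library and compared between the groups by a two-sided exact permutation test, adjusted over the 17 pairs by the Benjamini-Hochberg method. With 3 libraries against 3, the smallest possible p is 0.1, and 10 pairs reached it, with an adjusted p of 0.17. None can pass 0.05 in this design. Where 1 gene of a pair rose and the other fell, the smallest p was fixed in advance, because the groups did not overlap for either gene. Such pairs also differ widely by selection, since all listed genes had passed the authors' minimum fold change. In 7 of the 17 pairs, 1 gene was called higher and the other lower. The falling *HAT5* gene and the falling *MAGATAMA 3* gene each enter more than 1 of these pairs, so the 7 are not independent. By the same rule 59.1% of the whole list rose and 39.6% fell, so unrelated genes paired at random would often be opposite too. The count of 7 is therefore no sign that genes of 1 description part more often than others. The difference between the log2 fold changes was 4.07 (SE 0.20) for the *COL5* genes and 4.06 (SE 0.77) for the *ZFP3* genes. It was 2.57 (SE 0.17) for the *VAR3* genes, and 2.05 (SE 0.10) and 2.60 (SE 0.38) for the falling *HAT5* gene against the rising ones. The falling *MAGATAMA 3* gene differed from the others by 2.48 (SE 0.32) and 2.37 (SE 0.25). Summed over both genes, values were 24.4 to 26.8 in WT and 22.9 to 26.4 in *LsAP2*-OE for *COL5*. They were 27.7 to 31.8 and 49.0 to 51.2 for *VAR3*, and 3.51 to 3.85 and 1.95 to 2.86 for *ZFP3*. The falling *HAT5* gene with the second gave 73.2 to 74.5 and 79.3 to 85.8. With the third it gave 39.3 to 43.2 and 19.6 to 22.85. These sums depend on the unnamed normalization, which may not put both genes on the same scale. The division of reads between such genes was not tested.

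Other genes of one description were called in the same direction, and the design cannot show whether they differ in size. The difference was 0.08 (SE 0.19) for the *ZAT10* genes (exact permutation p = 0.7, adjusted p = 0.793) and 0.17 (SE 0.70) for the *COL4* genes (exact permutation p = 0.8, adjusted p = 0.80). Without *LsAP2*-OE replicate 2, in which 1 *COL4* gene is listed at 0, the difference of the *COL4* genes was −0.47, and with pseudocounts of 1 and 0.01 it was −0.83 and 1.44. The *BZIP34* genes differed by 0.17 to 0.43, with SEs of 0.088 to 0.14 (exact permutation p = 0.1 to 0.3). The *ATHB-51* genes differed by 2.62 (SE 0.22), a value that rests on the pseudocount, since 1 gene is listed at 0 in *LsAP2*-OE. With pseudocounts of 1 and 0.01 it was 0.43 and 5.77.

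**Figure D4:**
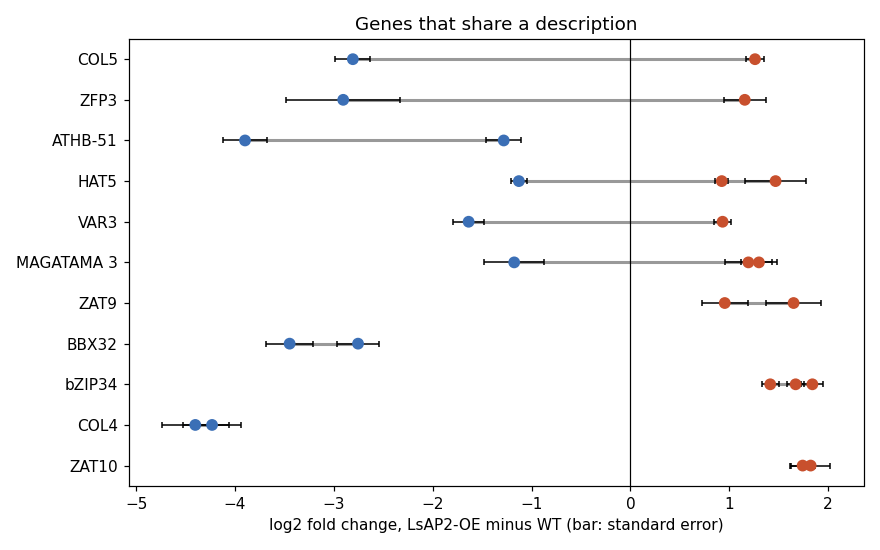
Log2 fold change (LsAP2-OE minus WT, horizontal axis) of the genes that share a Swiss-Prot description, with 1 line per description, 1 point per gene and bars for the standard error from limma. *COL5*, *ZFP3*, *HAT5*, *VAR3* and *MAGATAMA 3* genes lie on both sides of 0, while the genes of the other 6 descriptions lie on the same side.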

How the data were processed

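RNA-seq of young leaves was analysed for 3 WT and 3 *LsAP2*-OE libraries. The authors used HISAT2 for alignment and DESeq to select the listed genes (minimum fold change 2, FDR under 0.01). HISAT2, HISAT and DESeq are the tools that the submitters' processing notes of the authors name. For the versions, the quantification program and the build, nothing is given in the sources used here. Per gene and library, the deposited signal is a normalized expression value whose normalization is not named. In pairs of libraries, the 100 lowest values shared no common step (at most 7% lay within 1% of 1 ratio), so no reads or depth were recovered. The deposited FDR is the adjusted p-value and the deposited log2 column the fold change of the authors' comparison, and neither was used.

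Groups were compared on the log2(value + 0.1) scale in R 4.3.3 by limma 3.58.1 (trended variance, all genes kept, replicate numbers ignored). Benjamini-Hochberg adjustment covered 2579 genes, and genes were called at an adjusted p below 0.01. Fold changes on this scale understate the change of low genes. The procedure was run on simulated data in which 200 of the 2579 genes were changed. In the table itself 98.7% of the genes were called, so the simulation does not give the error rate of this fit. Members, families and lists were chosen with earlier results of these data known. In each family, values in every library are given for the 4 genes with the largest absolute log2 fold change among those with a mean of at least 1, and for genes that share a description. Values in every library of *COL16*, *COL2*, *GIGANTEA* and *COP1* were given beyond this rule, chosen after their values were seen. No set test was run. No ID matched the RefSeq gene table (0 matches), so no sequence or coordinate is given. Figures were drawn with matplotlib 3.10.9. The alternatives were pseudocounts of 1 and 0.01, a minimum mean of 1, no trend, a replicate block, within-group centring, each library left out, an adjusted p below 0.05, a 2-fold minimum, NR descriptions, and leaving out matches by name alone. The number of genes at a log2 fold change of −3 or less under other pseudocounts was added after seeing the data.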

Additional observations from a re-analysis of the deposited data

How the results depend on the processing

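None of the 59 genes changed direction, and 57 stayed past the threshold, in every fit that tested them (the fit with a minimum mean of 1 tested 54 of the 59). The other two, a *ZAT9* gene and the falling *MAGATAMA 3* gene, did not pass with the replicate block or without some libraries. Replicate numbers are shared by the groups. Deviations of same-numbered libraries correlated at −0.039 to 0.014, and those of libraries with unlike numbers at −0.0275 to 0.039. No pairing by number was seen, but with 3 libraries per group these values cannot exclude one. Under the block, 57 of the 59 genes were called, and the number of lower genes matched by name alone was 1 in place of 2. That number was also 1 with a minimum mean of 1, and 1 to 2 with a library left out. With a 2-fold minimum, 3 HD-Zip genes, 1 trihelix gene and 2 genes matched by name alone were called higher, in place of 5, 2 and 4. The NR descriptions held a word of the rule for 35 genes, 29 of them among the 59. Members by NR gave 23 higher and 12 lower genes in all, and these counts by family: 4 higher and 4 lower B-box genes in place of 6 and 9, 4 higher and 1 lower HD-Zip genes, 1 higher and 1 lower gene of other homeobox type, 0 lower and 1 higher Dof gene, 1 lower and 0 higher bZIP genes, 1 higher and 0 lower LOB genes, and 0 lower and 1 higher gene matched by name alone. Of 136 differences between genes of 1 description recomputed with other pseudocounts or without a library, 16 moved by more than the replicate SD, and 9 changed sign, none of them in a pair at the smallest p. All values lack a known depth, and the 5 genes with a mean below 1 are the least certain.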

Other observations

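A few genes of the same families are named by these words in the NR column alone, because their Swiss-Prot descriptions use other words. The gene described as *FD* (Lsat_1_v5_gn_4_145080), a bZIP factor that joins the florigen protein at the shoot tip of *Arabidopsis*, had values of 3.96, 2.88 and 3.29 in WT and 0.645, 0.0668 and 0.312 in *LsAP2*-OE (log2 fold change −3.22, SE 0.48, adjusted p = 2.14e-04 from limma). The *LsAP2*-OE libraries lay apart from each other, with replicate 2 the lowest, and all were below WT. *Zinc-finger homeodomain protein 3* (Lsat_1_v5_gn_9_124981), of a plant family that joins a zinc finger to a homeodomain, had values of 26.96, 25.01 and 27.01 in WT and 11.3, 10.9 and 9.79 in *LsAP2*-OE (log2 fold change −1.30, SE 0.081, adjusted p = 1.12e-06 from limma). Both were picked with their values in view.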
